A study of Mus musculus with 13 samples.

Results

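The response of the mouse mammary gland to weaning was compared between females with a conditional knockout of the tyrosine kinase gene Jak1 and wildtype controls, over all 13 of the 13 RNA-seq libraries of the study. The quantity examined was the interaction of knockout and stage. It is the knockout-minus-control difference at day 2 of involution minus the same difference at day 7 of lactation, on the scale of log2(FPKM + 1), where FPKM are mapped fragments scaled to transcript length and library size. A negative interaction means that the step from lactation to involution was smaller, or more downward, in the knockouts than in the controls. Whole flash-frozen glands were sampled at both stages. At lactation there were 3 wildtype controls (named here by the mouse numbers in the library titles as M42186, M43768 and M44175) and 3 knockouts (M44174, M42734 and M43767). At involution there were 3 wildtype controls (M44448, M43768 and M43914) and 4 knockouts (M43196, M43767, M44176 and M44440). The sources used here give neither the deleted part of Jak1, the recombinase and its promoter, nor the strain and the age of the mice. The 13 libraries carry only 11 mouse numbers, since control M43768 and knockout M43767 appear at both stages, although the protocol counts 7 knockout and 6 control animals. Libraries of the same stage thus come from separate mice, and p-values measure the spread between these libraries. Of 23951 gene symbols, 12667 reached at least 1 FPKM in at least 3 libraries and were tested.

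JAK1 is bound to the receptors of the interleukin 6 family, which includes leukaemia inhibitory factor (LIF) and oncostatin M, and to receptors for interferons and interleukin 4, and it phosphorylates STAT transcription factors. When milk accumulates after weaning, LIF from the epithelium activates STAT3, which is known to drive lysosomal cell death, an acute phase response and the early remodelling of the gland. STAT5, which prolactin activates mainly through JAK2, maintains milk synthesis before that. SOCS3 is induced by STAT3 and inhibits the same receptors, so its transcript is widely read as a sign of STAT3 activity.

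Factors that bring the libraries of a table to 1 scale were 0.953 to 1.12 in the lactation table and 0.979 to 1.02 in the involution table, with relative depths of 0.723 to 1.29 and 0.485 to 1.502. Lactation control M44175 stood apart, with FPKM summing to 871630 against 312976 to 421592 in the other 5 lactation libraries. Some values are therefore also given without it, and others may depend on it too. Involution knockout M43196 summed to 1367560 against 590437 to 958496 in the other involution libraries. It had 44.0% of its FPKM in the short RNA entry Mir6236 and the lowest relative depth, 0.485. Luminal keratin Krt8 was present in all 13 libraries (27.5 to 409 FPKM), as was Elf5, a transcription factor of the secretory epithelium (276 to 434 FPKM). Jak1 was at 14.2, 14.03 and 6.18 FPKM in the lactation controls, 9.51, 10.2 and 11.2 FPKM in the lactation knockouts, 24.3, 23.97 and 24.6 FPKM in the involution controls and 22.999, 22.2, 26.3 and 17.3 FPKM in the involution knockouts. Knockouts and controls overlapped at both stages, and the interaction of Jak1 was -0.11 ± 0.39 (log2 ± standard error, adjusted p = 0.999 with limma). A value for the whole gene in whole tissue can include cells in which Jak1 is intact and also shortened transcripts, so the labels cannot be checked with it.

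Most of the transcriptional step from lactation to involution was present in the knockouts. In control glands 1415 genes (11.2% of those tested) differed by at least 2 on the log2 scale between stages with no overlap between the libraries, 1357 higher and 58 lower at involution. The former included Saa3, Igfbp5 and Cd14, and the latter Slc34a2, Fabp3 and Egf. Over 12451 genes that were not listed at 0 in a whole group and were no short RNA entries, the stage changes of controls and knockouts, which share no library, correlated with a Pearson r of 0.890 across genes. Genes are not independent replicates, and the tables of the 2 stages may have been normalized separately, so stage changes are given as values without a test. The median stage change over all genes tested was 1.07 in controls and 1.10 in knockouts with each table scaled within itself, and 0.17 and 0.19 with all 13 libraries scaled together. A gene's own stage change has to be read against that median. In the interaction a shift common to both genotypes cancels, except through the pseudocount, which matters for genes at low levels.

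**Figure D1:**
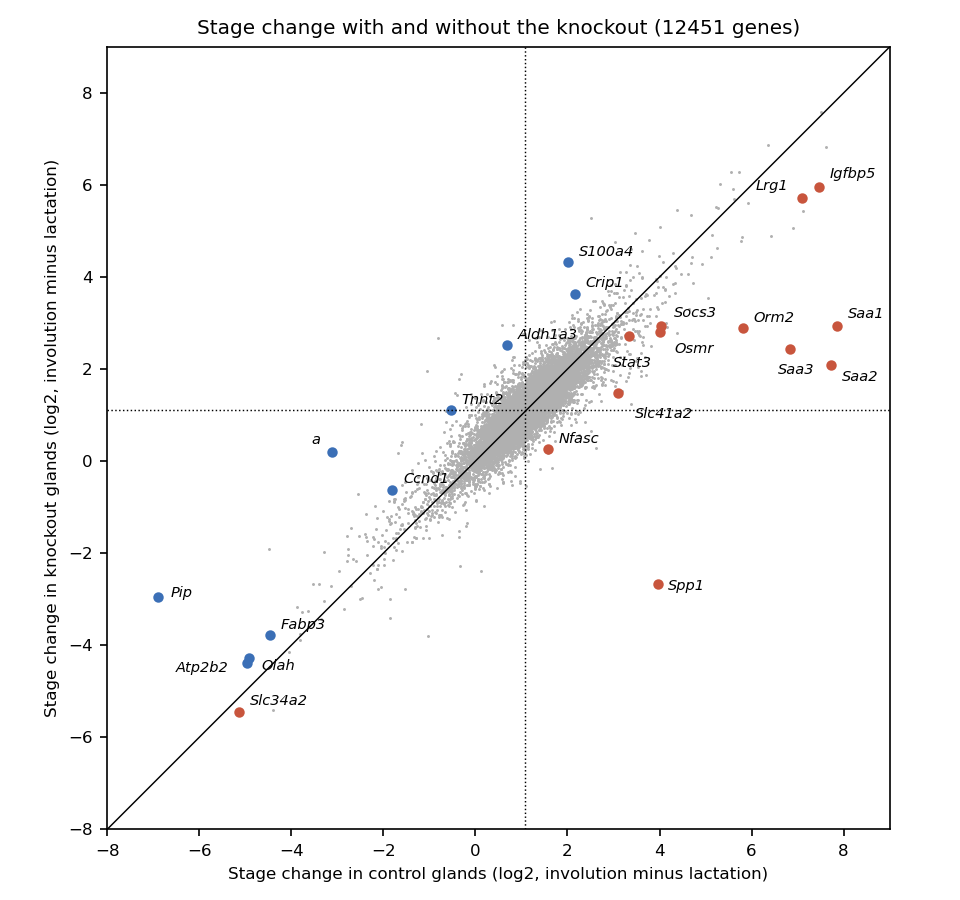
Stage change of each gene in control glands (horizontal, log2, mean at involution minus mean at lactation) against knockout glands (vertical, log2), for 12451 genes. Red points are named genes with a negative and blue points named genes with a positive interaction; the solid line marks equal change and the dotted lines the medians over all genes tested, 1.07 and 1.10. Most genes lie along the solid line, Spp1 lies alone below it at 3.96 and -2.67, and the serum amyloids Saa1, Saa2 and Saa3 lie far to its right.

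The size of the knockout step was expressed as a share of the control step, for genes with a control step of at least 1 and no overlap between stages. With tables scaled within themselves, 6557 genes were higher at involution, and in 6350 of them the share was between 0.5 and 1.5, in 114 it was under 0.5 (3 of these with the opposite sign) and in 93 it was above 1.5. Of 176 genes that were lower at involution, 146 had a share between 0.5 and 1.5, 27 had less and 3 had more. Together 141 of 6733 genes (2.09%) had a share under 0.5. With all libraries scaled together, which removes the common shift, 1230 genes were higher and 814 lower by at least 1. Shares under 0.5 were then found in 114 and 55 of them, and shares above 1.5 in 25 and 11.

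Choosing genes by the control step favours genes in which the controls happened to move far, so counts were also made with the genotypes exchanged. Of 6833 genes that were higher by at least 1 in knockouts within tables, the control step was under 0.5 of the knockout step in 199. With joint scaling it was so in 134 of 1216. For genes that were lower in knockouts the counts were 14 of 159 within tables and 47 of 818 with joint scaling. Of 190 measured genes that were higher by at least 2 in controls with joint scaling, 22 had a share under 0.5 and none had one above 1.5. Of 165 chosen by the knockout step instead, the control step was under 0.5 of it in 7 and above 1.5 times it in 3. Among the 979 genes that were higher by at least 2 within tables and stood at 10 FPKM or more in every involution control, 662 (67.6%) had a negative interaction, with a median of -0.18. For 910 genes chosen in the same way from the knockouts, 360 (39.6%) were negative and the median was 0.12, and for 796 genes chosen by the mean of both steps 412 (51.8%) were negative and the median was -0.02. Over all genes tested 48.9% had a negative interaction. The percentage of negative interactions was thus above that over all genes when genes were chosen by the controls, and below it when they were chosen by the knockouts. Shares under 0.5 were less frequent after the exchange for measured genes with joint scaling and a step of at least 2 (7 of 165 against 22 of 190). With joint scaling and a step of at least 1 they were more frequent after it (125 of 1187 against 100 of 1196). Within tables they were also more frequent after it, at 25 of 1289 against 21 of 1324 for a step of at least 2. For a step of at least 1 the counts were 184 of 6781 against 99 of 6501. The direction thus depended on the setting, and no difference was tested. The genes with the smallest shares with joint scaling that were also higher by at least 2 in controls were Spp1, Saa2, 1700063D05Rik, Saa3, the complement gene C3 and Saa1, of which 1700063D05Rik and C3 were chosen after their values were seen.

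The interaction passed the threshold (adjusted p under 0.05, limma) in 10 of 12667 genes (0.0789%), 8 lower (0.0632%) and 2 higher (0.0158%), and 424 genes (3.35%) had an unadjusted p under 0.05. Only 3 of the 10 were measured in every group. These were Spp1 and Nfasc, whose interaction was negative, and Tnnt2, whose interaction was positive. The other 7 were listed at exactly 0 in all libraries of 1 or more groups. The count was 6 without lactation knockout M42734, without involution control M43768 or without involution control M43914. Fitted within its own stage, the knockout effect passed in 9 genes at involution (0.0711%) and in 1 at lactation (0.00789%). An unadjusted p under 0.05 was found in 6.82% and 2.93% of genes. The calls at involution were Spp1, Nfasc, Orm2, the agouti gene a, and Csn1s2a, Trf, Cdk8, Mir7036b and Mir1905. The last 5 were listed at 0 in a whole group, as was the call at lactation, Rn45s. Knockouts and controls did not overlap in 6.8% of genes at involution and 6.46% at lactation.

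Spp1 encodes osteopontin, a secreted phosphoprotein that binds integrins and is found in milk and in remodelling tissue. Lactation controls had 650.5, 454 and 539 FPKM and lactation knockouts 2386, 824 and 1136 FPKM. Involution controls had 10751, 4866 and 11070.4 FPKM and involution knockouts 582, 98.1, 231 and 140.5 FPKM. Every knockout was above every control at lactation and below every control at involution. The step from lactation to involution was 3.96 (log2) in controls and -2.67 in knockouts, and with joint scaling it was 2.68 and -3.93, again in opposite directions. The knockout effect was 1.34 ± 0.47 at lactation and -5.29 ± 0.61 at involution, and the interaction was -6.63 ± 0.82 (adjusted p = 0.00547). It passed in all 25 alternative settings, with interactions from -7.12 to -6.20 and adjusted p from 0.000270 to 0.0391. In whole tissue, fewer cells of a type and less RNA per cell cannot be told apart. Macrophages can also express Spp1, and the summed FPKM of 13 macrophage markers ran from 453 to 592 in the involution controls and from 367 to 1083 in the knockouts. The part of these cells in the result was not tested.

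Nfasc encodes neurofascin, an adhesion molecule of the immunoglobulin superfamily best known from axons. At lactation it was close to 0, at 0, 0.136 and 0.0283 FPKM in controls and 0.0398, 0.0208 and 0.00875 FPKM in knockouts. At involution it reached 2.52, 2.07 and 1.97 FPKM in controls and 0.468, 0.156, 0.176 and 0.146 FPKM in knockouts, with no overlap. The control step of 1.58 (log2) compared with 0.27 in the knockouts, and the interaction was -1.32 ± 0.19 (adjusted p = 0.0190). This call was lost with adjusted p of 0.0808, 0.0817, 0.115, 0.0940 and 0.102 without lactation libraries M42186, M44175, M44174, M42734 and M43767, and with a pseudocount of 0.1 (adjusted p = 0.99987). It was also lost with joint scaling (interaction -1.01, limma adjusted p = 0.114). Nfasc passed in 12 of 21 alternatives. Nfasc reached the expression filter only through the 3 involution controls, the group in which it was high. Without any 1 of them it was no longer tested, so its level of about 2 FPKM limits the result.

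Tnnt2 encodes cardiac troponin T, a regulator of the thin filament of muscle, and was at low levels throughout. It stood at 1.81, 1.38 and 1.59 FPKM in the lactation controls and 0.741, 0.633 and 0.889 FPKM in the lactation knockouts, and at 0.982, 0.7098 and 0.646 FPKM in the involution controls and 3.11, 2.91, 1.91 and 3.32 FPKM in the involution knockouts. Every knockout was below every control at lactation and above every control at involution. The control step was -0.53 and the knockout step 1.10, and the interaction was 1.63 ± 0.23 (adjusted p = 0.0189). Adjusted p was 0.0763, 0.0506, 0.0988, 0.0940 and 0.0566 without lactation libraries M42186, M44175, M44174, M42734 and M43767, 0.101 and 0.102 without involution controls M43768 and M43914, and 0.331 after scaling by the total without milk proteins. Markers of skeletal muscle varied widely, with sums from 119 to 1667 FPKM in the involution controls and from 46.8 to 6109 FPKM in the knockouts. Their part in the result was not tested.

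**Figure D2:**
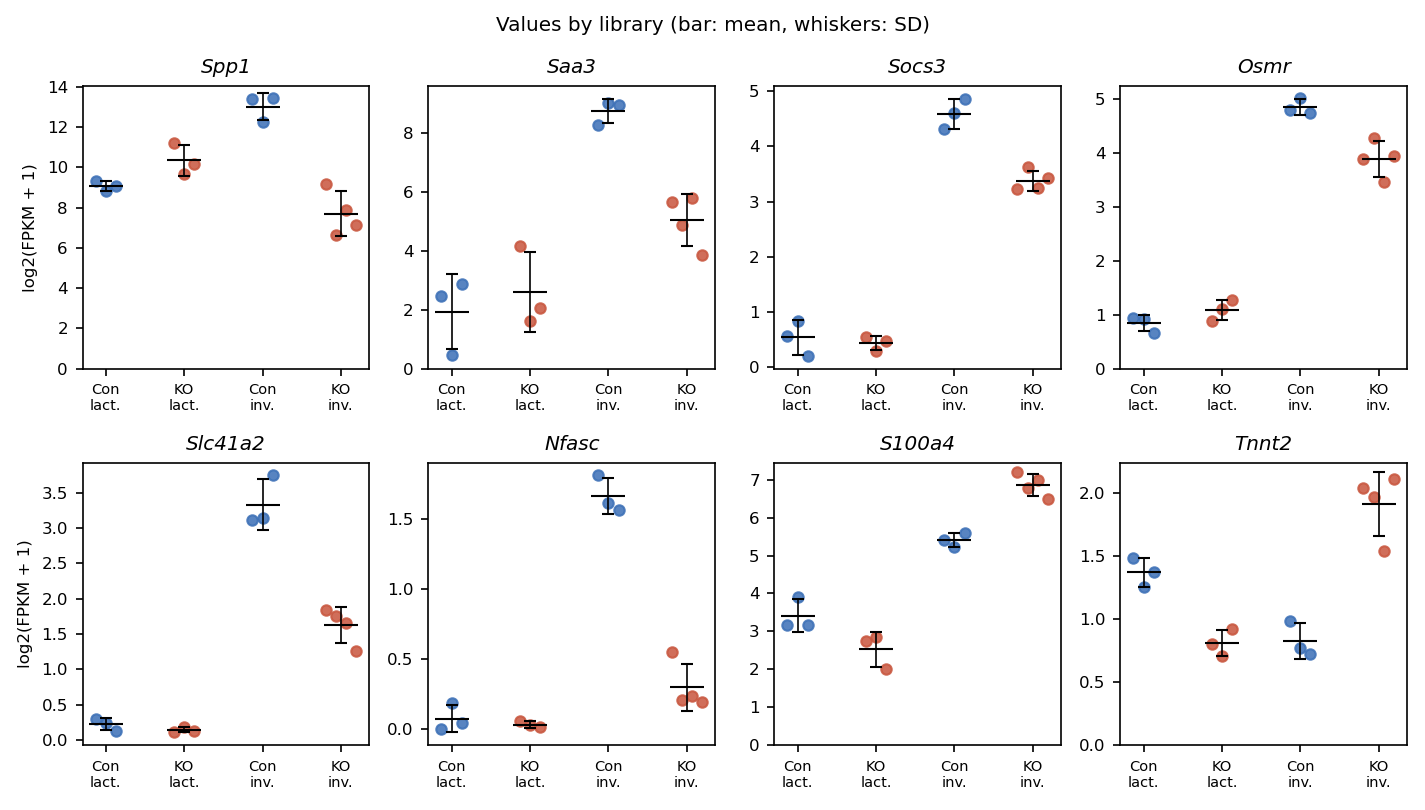
Deposited FPKM of 8 genes by library as log2(FPKM + 1), with controls (Con) in blue and knockouts (KO) in red, at lactation (lact.) and involution (inv.). The horizontal bar is the mean and the whiskers the SD of 3 libraries, or 4 for involution knockouts. Spp1 and Tnnt2 cross over between stages, Saa3, Socs3, Osmr, Slc41a2 and Nfasc are higher at involution in both genotypes with the knockouts below the controls, and S100a4 is higher with the knockouts above.

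The 7 other called genes rest on entries listed at 0, which can stand for a failed estimate, and their fitted interactions are not read as fold changes. The casein gene Csn1s2a was listed at 0 in all 10 libraries of 3 groups and at 20351 to 41984 FPKM in the involution controls. Transferrin gene Trf, a major iron carrier of milk, was listed at 0 in the 3 involution controls, at 14159 to 20572 FPKM in the lactation controls, at 6952 to 15257 FPKM in the lactation knockouts and at 2293 to 7718 FPKM in the involution knockouts. Cdk8 encodes a kinase that regulates transcription through the mediator. It was at 0 in the 4 involution knockouts and at 3.77 to 6.36, 4.42 to 5.85 and 9.06 to 11.6 FPKM in the lactation controls, lactation knockouts and involution controls. The short RNA entries Mir7036b (547 to 922 FPKM) and Mir1905 (109 to 190 FPKM) were above 0 only in the involution controls. Rn45s, the ribosomal RNA precursor (508 to 3982 FPKM), and Mir22 (14.3 to 87.6 FPKM) were above 0 only in the lactation knockouts. Another casein gene, Csn3, chosen after its values were seen, was listed at 0 in all 6 lactation libraries and at 2466 to 15123 FPKM in the 7 involution libraries of both genotypes. Without the 169 genes listed at 0 in a whole group, 1 gene, Spp1, passed.

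Genes of the JAK and STAT pathway itself mostly had somewhat smaller steps in the knockouts, and none passed. Of 10 tested JAK and STAT genes, 9 had a negative interaction (48.9% over all genes), none with an unadjusted p under 0.05, and the median was -0.21 (all genes 0.01). Without lactation control M44175 the median was 0.0522. Stat3 stood at 9.01, 11.7 and 6.15 and 7.85, 8.24 and 9.67 FPKM in lactation controls and knockouts, and at 113, 90.2 and 87.7 and 59.5, 59.9, 62.7 and 69.3 FPKM at involution. Knockouts lay below all controls at involution and overlapped with them at lactation, the steps were 3.34 and 2.72, and the interaction was -0.62 ± 0.32 (adjusted p = 0.999). Small negative interactions were found for the kinases Tyk2 (-0.17), Jak3 (-0.26) and Jak2 (-0.06) and for the transcription factors Stat2 (-0.38), Stat5b (-0.27), Stat5a (-0.26) and Stat6 (-0.09). Stat4 was not tested because of its low level.

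Among the ligands, Lif stood at 0.227, 0.0328 and 0 FPKM in lactation controls and 0.134, 0.0751 and 0.127 FPKM in lactation knockouts. Involution controls had 3.704, 2.89 and 6.97 FPKM and involution knockouts 8.98, 14.9, 3.54 and 18.5 FPKM, with overlap. Its step was 2.27 in controls and 3.30 in knockouts (interaction 1.03 ± 0.60, adjusted p = 0.999). Of 18 listed cytokines that use JAK1, 5 were tested, 4 with a positive and 1 with a negative interaction, none with an unadjusted p under 0.05, and the median was 0.05.

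Of 16 tested receptors that use JAK1, 7 had a negative interaction, 2 of them with an unadjusted p under 0.05 (1.89% of all genes tested in that direction). The median was 0.04. Osmr, the oncostatin M receptor, which pairs with gp130, stood at 0.915, 0.892 and 0.5896 and 0.852, 1.15 and 1.41 FPKM in lactation controls and knockouts. Its involution values were 26.97, 31.6 and 25.96 FPKM in controls and 13.8, 18.3, 10.02 and 14.3 FPKM in knockouts, all below the controls. The steps were 4.02 and 2.79 and the interaction -1.22 ± 0.28 (unadjusted p = 0.000993, adjusted p = 0.477). Il4ra, the receptor chain for interleukin 4, stood at 18.05, 22.2 and 26.3 FPKM in involution controls and 13.8, 15.8, 13.04 and 12.1 FPKM in involution knockouts, against 8.11 to 15.5 FPKM at lactation. Its step of 1.05 in controls, about the median of all genes, compared with 0.11 in knockouts (interaction -0.94 ± 0.34, adjusted p = 0.999). With joint scaling both steps were negative, at -0.15 and -1.06.

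Socs3, the feedback inhibitor downstream of STAT3, was below 1 FPKM in all 6 lactation libraries, at 0.481, 0.795 and 0.155 FPKM in controls and 0.464, 0.227 and 0.383 FPKM in knockouts. At involution it reached 18.97, 23.4 and 27.99 FPKM in controls and 8.399, 11.3, 8.45 and 9.71 FPKM in knockouts. The knockouts lay at 8.40 to 11.3 FPKM, above every lactation library and below every involution control. The steps were 4.04 and 2.94 and the interaction -1.10 ± 0.27 (unadjusted p = 0.00157, adjusted p = 0.622). Of 16 feedback inhibitors tested, 10 had a negative interaction (48.9% over all genes), 2 with an unadjusted p under 0.05 (1.89%), and the median was -0.21.

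The promoters of 2 of the STAT3 targets with smaller steps, Socs3 and the death receptor gene Tnfrsf1a, are shown because each holds a match to the STAT consensus TTCNNNGAA, which reads the same on both strands. The windows run from 250 bases before to 50 after a transcript start, on the gene's own strand, from RefSeq on build GRCm38.p6, which is not the build of the authors' alignment. Capitals mark the match, whose first base lies at -154 from the start in Socs3 (chr11:117969317-117969616, minus strand) and at -244 in Tnfrsf1a (chr6:125349473-125349772, plus strand).
Socs3: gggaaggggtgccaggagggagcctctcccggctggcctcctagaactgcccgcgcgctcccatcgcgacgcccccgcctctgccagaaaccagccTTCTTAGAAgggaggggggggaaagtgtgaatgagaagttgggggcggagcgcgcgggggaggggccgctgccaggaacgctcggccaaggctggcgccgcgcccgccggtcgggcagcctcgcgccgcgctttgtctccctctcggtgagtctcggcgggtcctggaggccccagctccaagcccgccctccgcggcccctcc
Tnfrsf1a: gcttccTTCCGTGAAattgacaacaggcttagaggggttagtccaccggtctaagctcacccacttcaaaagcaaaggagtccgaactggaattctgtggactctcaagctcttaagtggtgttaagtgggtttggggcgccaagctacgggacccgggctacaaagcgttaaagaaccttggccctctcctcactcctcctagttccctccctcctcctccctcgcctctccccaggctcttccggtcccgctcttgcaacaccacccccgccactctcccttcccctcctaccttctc
Of 110 genes that were higher by at least 2 in controls and had a negative interaction with an unadjusted p under 0.05, 81 had at least 1 such window, 109 windows in all. The motif was found in 7.34% of these, in 5.64% of 1311 windows of all genes higher by at least 2 in controls, and in 8.30% of all 32851 windows. The narrower form TTCCNGGAA, every match of which is also a match of the wider form, was found in 0.917%, 1.14% and 1.15% of them. The wider form was less frequent among windows of the genes with smaller knockout steps than among all windows. It was more frequent there than among windows of all genes higher by at least 2 in controls. The direction thus depended on the comparison, and no difference was tested. Matches also lay in windows of Serpina3g, Itih4 and Pip, whose interactions were positive. A window of this length leaves out more distant sequence.

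Acute phase proteins, which the liver and inflamed epithelia secrete, had the largest control steps of the 21 pathway lists (median 3.26) and the most negative median interaction among them. Of 19 members tested, 16 had a negative interaction, 5 with an unadjusted p under 0.05 (1.89% of all genes), and the median was -0.46, against 0.01 over all genes. Of the 3 positive ones 1, the serpin gene Serpina3g, had an unadjusted p under 0.05 (interaction 2.03 ± 0.84, unadjusted p = 0.0329), with 0.721, 6.47 and 20.01 FPKM in lactation controls and 0.853 to 1.55 FPKM in involution knockouts. None passed over all genes. The median ran from -0.72 to -0.24, the latter without involution knockout M44440. The alternatives for this list were FPKM as deposited, quantile normalization, a pseudocount of 0.1 and each library left out. Saa3, a serum amyloid made outside the liver, stood at 4.498, 0.383 and 6.36 FPKM in lactation controls and 16.8, 2.04 and 3.199 FPKM in lactation knockouts. At involution it stood at 313, 525 and 497 FPKM in controls and 49.3, 28.8, 54.3 and 13.6 FPKM in knockouts, with every knockout below every control. Its step was 6.84 in controls and 2.43 in knockouts (interaction -4.42 ± 0.99, unadjusted p = 0.000736, adjusted p = 0.444), and it passed in 1 of 25 alternatives, with the mouse number as a random block (adjusted p = 0.0317).

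Saa1 and Saa2 varied far more between mice than Saa3. Saa1 stood at 2718, 4661 and 609 FPKM in involution controls and 404, 88.7, 339 and 24.5 FPKM in knockouts (interaction -4.93 ± 1.55, adjusted p = 0.999), and Saa2 at 1889.8, 3796 and 381 FPKM and 246, 57.2, 149 and 13.8 FPKM (interaction -5.64 ± 1.56, adjusted p = 0.999). The groups did not overlap in either, but control M43914 was several times lower than the other 2 controls in both. Lactation knockout M44174 was the highest lactation library in all 3 Saa genes (73.1, 58.0 and 16.8 FPKM). It lay above involution knockout M44440 in each (24.5, 13.8 and 13.6 FPKM), so the knockout libraries of the 2 stages overlapped. The Saa genes are similar copies, as are Orm1 and Orm2, and how their reads were shared is uncertain. Orm2, a lipid-binding plasma glycoprotein, stood at 10.8, 3.07 and 8.67 and 9.36, 1.17 and 10.2 FPKM at lactation, 276, 379 and 754 FPKM in involution controls and 47.1, 36.4, 60.9 and 43.1 FPKM in involution knockouts (interaction -2.93 ± 0.82, unadjusted p = 0.00359). Its knockout step of 2.88 was about 0.50 of the control step of 5.81. Fitted within involution, the knockout effect of Orm2 was -3.17 ± 0.34 (limma adjusted p = 0.0303).

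The other members with large steps differed less between the genotypes, or differed in the opposite direction. Lrg1, a leucine-rich glycoprotein, stood at 664, 844 and 670.3 FPKM in involution controls and 350.3, 298, 332 and 171 FPKM in knockouts, from 2.16 to 8.28 FPKM at lactation, with steps of 7.09 and 5.72 (interaction -1.37 ± 0.58, unadjusted p = 0.0357). Lcn2, lipocalin 2, which withholds iron from bacteria, stood at 6720.4, 10513 and 13021 FPKM and 5588, 3261, 3534 and 2392 FPKM (interaction -1.25 ± 0.71, unadjusted p = 0.104). In both genes all 4 knockouts lay below the controls and above all lactation libraries. Hp and Itih4, a haptoglobin and an inhibitor heavy chain of plasma, went the other way. Hp stood at 247, 318 and 155 FPKM in involution controls and 640.3, 1113, 1110.3 and 321 FPKM in knockouts, the groups apart, with steps of 5.31 and 6.03. Its interaction of 0.72 ± 0.91 had no stable sign, since it was -0.0207 without lactation knockout M42734. Itih4 stood at 1.81, 2.43 and 1.13 FPKM and 6.58, 13.4, 13.2 and 1.59 FPKM at involution, with overlap (interaction 1.44 ± 0.68, unadjusted p = 0.0554), and was chosen after its values were seen. The summed neutrophil markers, which can accompany such genes, ran from 56.8 to 238 FPKM in involution controls and from 35.4 to 471 FPKM in knockouts, and their part was not tested.

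Targets that STAT3 is known to control in involution had a median interaction of -0.30, with 18 of 24 negative (48.9% over all genes), 7 of them with an unadjusted p under 0.05 (1.89% over all genes) and none past the threshold. The median was -0.14 without lactation control M44175 and -0.58 without lactation knockout M44174. Igfbp5, a secreted binder of insulin-like growth factors linked to loss of survival signals, stood at 4.58, 4.81 and 2.07 and 5.85, 3.95 and 4.31 FPKM at lactation. Its involution values were 929, 901 and 658 FPKM in controls and 509, 385, 265 and 307 FPKM in knockouts, with steps of 7.47 and 5.96 (interaction -1.51 ± 0.43, unadjusted p = 0.00423). Every knockout was below every control and far above every lactation library. Cd14, the lipopolysaccharide co-receptor, stood at 1622, 1644 and 2372 FPKM in involution controls and 738, 508, 786 and 1000.5 FPKM in knockouts, with steps of 6.43 and 4.89 (interaction -1.53 ± 0.60, unadjusted p = 0.0249). Ctsb, the lysosomal protease cathepsin B, stood at 351, 499.98 and 576 FPKM and 349, 238, 376 and 209 FPKM, with overlap, and its steps were 2.20 and 1.33 (interaction -0.87 ± 0.35, unadjusted p = 0.0304). Tnfrsf1a, the tumour necrosis factor receptor, had steps of 2.42 and 1.76 (interaction -0.66 ± 0.29, unadjusted p = 0.0444), and overlapped between genotypes at involution.

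A further 7 genes with smaller knockout steps are given from the 40 genes with the smallest interaction p, of which all but Card14 were chosen after their values were seen. The magnesium transporter gene Slc41a2 stood at 0.228, 0.1796 and 0.0933 and 0.0874, 0.137 and 0.0962 FPKM at lactation. By involution it was at 7.62, 7.78 and 12.4 FPKM in controls and 2.57, 2.39, 2.16 and 1.397 FPKM in knockouts, with steps of 3.10 and 1.49 (interaction -1.61 ± 0.26, adjusted p = 0.0559). Scnn1a, the alpha subunit of the epithelial sodium channel, stood at 8.5004, 7.897 and 7.24 FPKM and 2.93, 3.101, 1.95 and 1.79 FPKM at involution, and at 0.237 to 0.464 FPKM in every lactation library (interaction -1.42 ± 0.24, adjusted p = 0.0580). The groups did not overlap at involution in either gene. Both passed with FPKM as deposited, with quantile normalization, with array weights and with the mouse number as a block. Slc41a2 also passed with robust empirical Bayes, and Scnn1a also without involution knockout M43767 (limma adjusted p = 0.0466). Each gene passed in only these 5 of 24 alternatives. With a pseudocount of 0.1 the limma adjusted p was 0.99987 for Slc41a2 and 0.718 for Scnn1a.

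The uncharacterized gene 1700025G04Rik stood at 2.09, 1.76 and 2.12 and 2.34, 2.27 and 1.92 FPKM at lactation, 13.4, 14.7 and 18.4 FPKM in involution controls and 6.46, 6.98, 7.23 and 6.54 FPKM in involution knockouts (interaction -1.18 ± 0.20, adjusted p = 0.0559). Its involution knockouts differed from each other by less than 1 FPKM. Card14, a scaffold of NF-kB signalling in epithelia, stood at 15.5, 14.7 and 15.8 FPKM and 3.51, 3.43, 6.22 and 6.39 FPKM at involution (interaction -1.63 ± 0.30, adjusted p = 0.102). Cnnm2, a membrane protein of magnesium handling, stood at 19.5, 22.1 and 28.4 FPKM and 9.93, 8.704, 9.59 and 7.496 FPKM (interaction -1.43 ± 0.26, adjusted p = 0.102). Efna5, an ephrin ligand, stood at 5.46, 5.73 and 5.81 FPKM and 3.02, 2.83, 2.304 and 2.76 FPKM (interaction -0.93 ± 0.17, adjusted p = 0.107). Trps1, a GATA-type transcriptional repressor, stood at 15.9, 18.1 and 18.7 FPKM and 8.82, 9.28, 7.25 and 10.3 FPKM (interaction -1.18 ± 0.25, adjusted p = 0.282). In each of these 5 genes all involution knockouts lay between the lactation libraries and the involution controls, with shares of the control step between 0.52 and 0.63. With joint scaling the share was 0.54 in Efna5 and between 0.20 and 0.44 in the other 4, and it was 0.42 in Slc41a2 and 0.35 in Scnn1a.

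**Figure D3:**
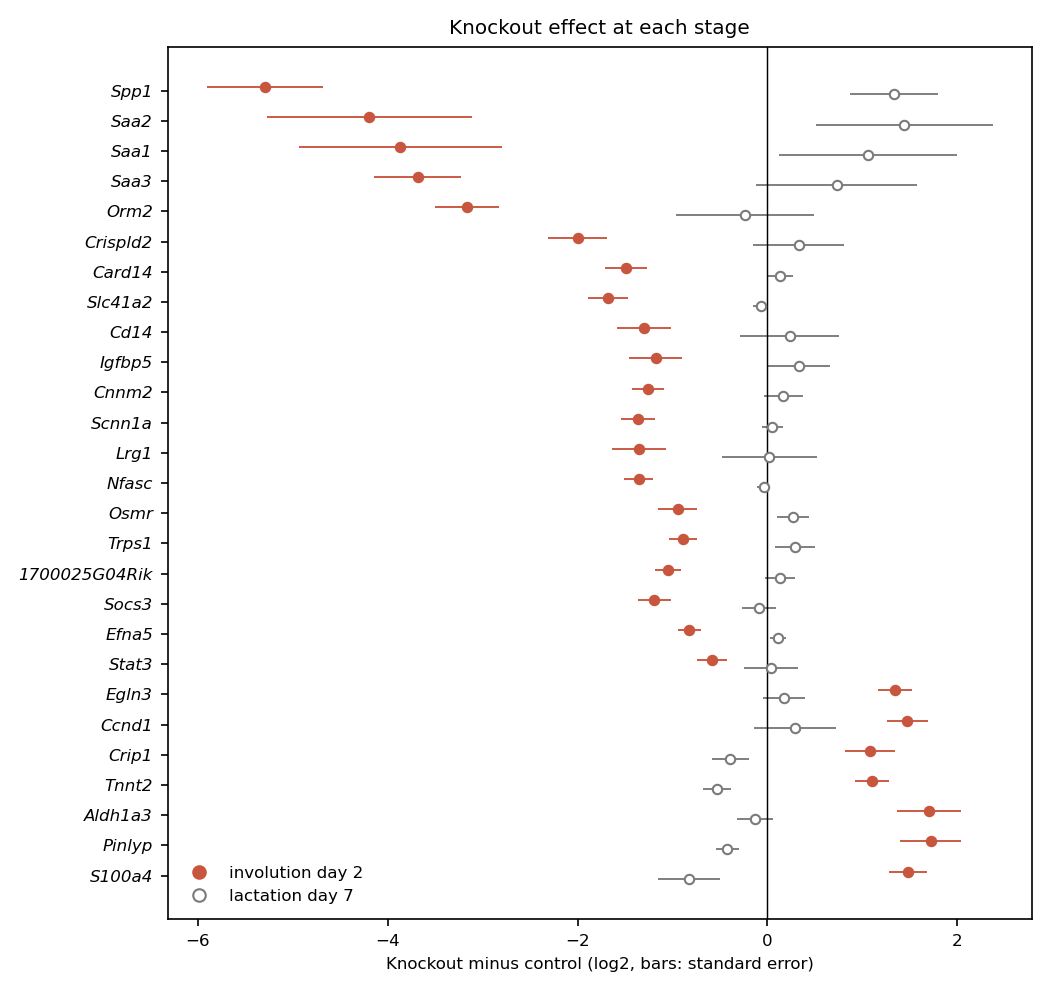
Knockout minus control difference (horizontal, log2, fitted within each stage) at involution day 2 (filled red) and lactation day 7 (open grey) for 27 genes, ordered by interaction, with standard errors as bars. From Spp1 to Stat3 the involution effect is negative, from Egln3 to S100a4 it is positive, and the lactation effects lie between -0.83 (S100a4) and 1.44 (Saa2).

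In the other direction, 185 genes (1.46%) had a positive interaction with an unadjusted p under 0.05. S100a4, a calcium-binding protein linked to cell motility, stood at 7.92, 14.01 and 7.94 FPKM in lactation controls and 5.701, 6.15 and 3.0002 FPKM in lactation knockouts. Involution values were 41.3, 36.3 and 47.5 FPKM in controls and 146, 108, 126 and 89.3 FPKM in knockouts. The knockouts were below all controls at lactation and above all controls at involution, so that the step was 2.01 in controls and 4.32 in knockouts (interaction 2.31 ± 0.38, adjusted p = 0.0559). It passed in 5 of 25 alternatives, among them quantile normalization and robust empirical Bayes, with adjusted p from 0.00231 to 0.331 over all of them. Crip1, a small LIM domain protein, stood at 38.1, 29.4 and 42.3 and 27.1, 23.6 and 27.8 FPKM at lactation and at 200.5, 144 and 150.5 FPKM in controls and 456, 299.9, 402 and 245 FPKM in knockouts at involution (interaction 1.48 ± 0.34, adjusted p = 0.477). It crossed over between stages in the same way, with steps of 2.16 and 3.64.

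Other genes with a positive interaction had control steps of different sizes. Egln3, a prolyl hydroxylase of the oxygen-sensing pathway, stood at 2.93 to 5.20 FPKM in all lactation libraries and at 3.83, 3.897 and 3.84 FPKM in involution controls. In involution knockouts it stood at 14.3, 8.39, 12.5 and 10.2 FPKM, all above the controls (steps 0.16 and 1.33, or -0.84 and 0.24 with joint scaling, interaction 1.17 ± 0.27, adjusted p = 0.477). Of 18 hypoxia genes tested, 10 had a positive and 8 a negative interaction (48.9% negative over all genes), with a median of 0.02. Pinlyp, which encodes a phospholipase inhibitor of the Ly6 type, stood below 1 FPKM in all controls and lactation knockouts. In involution knockouts it was at 3.79, 1.37, 5.69 and 2.83 FPKM (interaction 2.14 ± 0.39, adjusted p = 0.102). Only through that group did Pinlyp reach the expression filter, so its being apart there is no separate support. Aldh1a3, an enzyme of retinoic acid synthesis, stood at 1.91, 1.11 and 0.571 FPKM in involution controls and 4.32, 3.72, 6.94 and 10.01 FPKM in knockouts (interaction 1.83 ± 0.44, adjusted p = 0.486). Cthrc1, a secreted matrix protein, stood at 1.65, 1.34 and 1.37 FPKM and 4.95, 3.49, 4.61 and 3.199 FPKM (steps 0.89 and 1.89, interaction 1.00 ± 0.24, adjusted p = 0.477). The groups were apart at involution in each. Pinlyp, Aldh1a3 and Cthrc1 were named after their values were seen. Ccl8, a chemokine for monocytes, stood at 37.7, 59.997 and 38.7 FPKM in involution controls and 309.9, 207, 151 and 67.8 FPKM in knockouts (steps 3.03 and 4.77, interaction 1.74 ± 0.81, adjusted p = 0.999).

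Sums of basal epithelial and fibroblast markers are given beside these genes. The summed FPKM of 10 basal markers ran from 372 to 654 in involution controls and from 704 to 771 in knockouts, with no overlap, and that of 10 fibroblast markers from 253 to 566 and from 442 to 1065. At lactation the sums overlapped for basal (194 to 444 and 214 to 348) and for fibroblast markers (65.3 to 192 and 172 to 185). The median knockout effect of the fibroblast markers was 0.71 at lactation and 0.79 at involution, with 6 of 10 positive interactions and a median of 0.12. Their part in the positive interactions was not tested.

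Cell cycle genes as a list had a more positive step in the knockouts, but this pattern rested on 1 library. Of 28 tested, 24 had a positive and 4 a negative interaction (48.9% negative over all genes), and the median was 0.48. Of the positive ones 1 had an unadjusted p under 0.05 with limma (1.46% over all genes) and none passed the threshold. Without lactation control M42186 the median was -0.0232. The median knockout effect at involution, in which M42186 has no part, was 0.50, against 0.01 over all genes. Ccnd1, which encodes the G1 cyclin D1, stood at 24.3, 15.6 and 7.601 FPKM in lactation controls and 15.3, 16.95 and 19.2 FPKM in lactation knockouts. At involution it stood at 3.84, 2.95 and 3.31 FPKM in controls and 7.601, 9.91, 14.5 and 12.9 FPKM in knockouts, with every knockout above every control. The control step was -1.80 and the knockout step -0.62 (interaction 1.18 ± 0.49, unadjusted p = 0.0326, adjusted p = 0.999). The proliferation marker Mki67 was at 6.66, 4.79 and 1.04 FPKM in lactation controls, and the mitotic gene Cdc20 at 5.15, 1.03 and 0.247 FPKM, M42186 being the highest in both. Mki67 was chosen after its values were seen.

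Some genes of milk secretion were far lower at involution in both genotypes. Slc34a2, the phosphate transporter of the secretory epithelium, stood at 405, 441 and 238 FPKM in lactation controls, 323, 457 and 368 FPKM in lactation knockouts, 8.65, 9.06 and 8.84 FPKM in involution controls and 11.1, 12.2, 5.099 and 5.29 FPKM in involution knockouts. Its steps were -5.13 and -5.45 (interaction -0.31 ± 0.48, adjusted p = 0.999). Atp2b2, the calcium pump that loads milk, had steps of -4.97 and -4.40 (interaction 0.57 ± 0.43). Olah, the thioesterase that releases medium-chain fatty acids, had steps of -4.93 and -4.27 (0.66 ± 0.58), and Fabp3, a fatty acid binding protein, -4.46 and -3.78 (0.68 ± 0.75). Egf, a growth factor of milk, stood at 25.9 to 36.4 FPKM in the lactation libraries and at 1.38 to 3.04 FPKM in the involution libraries, with steps of -3.37 and -3.42 (-0.06 ± 0.29). Atp2b2 and Olah were chosen after their values were seen. In these 5 genes the 2 genotypes overlapped at both stages. Their standard errors of 0.29 to 0.75 leave room for differences of that size, so the values do not show that the genotypes were equal.

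As lists, milk lipid synthesis genes had a median step of -0.70 in both genotypes (35 tested, 14 positive and 21 negative interactions, 1 with an unadjusted p under 0.05, median interaction -0.14). With joint scaling the medians were -1.84 and -1.96. The member under that level was Fads2, a fatty acid desaturase, with steps of -1.86 and -3.001 (interaction -1.14 ± 0.48). The list of lactose, glucose and ion transport had median steps of 0.62 and 0.19, or -0.49 and -0.95 with joint scaling. It had 19 of 28 negative interactions (48.9% over all genes) with a median of -0.29, and 4 members with an unadjusted p under 0.05 (3.35% over all genes), of which Ugp2 and Aqp3 were positive. Ugp2, which makes the sugar nucleotide for lactose, stood at 36.7, 58.3 and 70.4 FPKM in involution controls and 107, 67.1, 97.99 and 103 FPKM in knockouts, with overlap (interaction 1.15 ± 0.38, adjusted p = 0.999). Milk proteins had a median interaction of -0.19 over 17 members, or -0.09 without those listed at 0 in a group, and 0.08 and 0.02 without lactation libraries M44175 and M43767. Lpo, lactoperoxidase of milk, had steps of -1.85 and -3.41 (interaction -1.55 ± 0.53, unadjusted p = 0.0123). Pip, the prolactin-induced protein, stood at 1601, 58.3 and 1067 FPKM in lactation controls and 1084, 134 and 482 FPKM in lactation knockouts. Involution values were 0.173, 5.54 and 6.56 FPKM in controls and 15.9, 44.8, 390.1 and 26.997 FPKM in knockouts, where M44176 was far above the rest (steps -6.90 and -2.96, interaction 3.93 ± 1.87, adjusted p = 0.999).

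Cell death and lysosomal genes, which STAT3 is known to act on, had no member past the threshold (limma). Of 31 cell death genes, 19 had a negative interaction (48.9% over all genes), 2 with an unadjusted p under 0.05 (1.89%), with a median of -0.13, and their median steps were 1.54 in controls and 1.61 in knockouts. Bmf, a pro-apoptotic BH3-only protein, stood at 1.43, 2.74 and 4.23 and 2.92, 2.69 and 2.23 FPKM at lactation and at 36.4, 37.995 and 28.8 FPKM in controls and 20.7, 14.2, 17.1 and 21.7 FPKM in knockouts at involution, with the knockouts below all controls (interaction -0.90 ± 0.33, unadjusted p = 0.0171). Of 31 lysosomal genes, 20 had a negative interaction, 1 with an unadjusted p under 0.05 in each direction, and the median steps were 2.06 and 1.65. Their median interaction of -0.09 ran from -0.27, without involution control M44448, to 0.00, without involution knockout M44440. Lgmn, the lysosomal protease legumain, went against Ctsb, at 57.4, 58.8 and 52.6 FPKM in involution controls and 93.2, 68.2, 92.7 and 64.6 FPKM in knockouts, with no overlap (interaction 0.70 ± 0.30, unadjusted p = 0.0379).

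Genes that were higher by nearly the same step in both genotypes included Calcoco1, an autophagy receptor (steps of 2.31 and 2.31, interaction 0.00 ± 0.27). Others were Adprhl2, a hydrolase that removes ADP-ribose (2.04 and 2.04, -0.00 ± 0.22), and Lgals9, a galectin (2.34 and 2.34, -0.00 ± 0.42). Dedd2, a death effector domain protein, was a further one (2.33 and 2.32, -0.00 ± 0.30). These genes were picked by rule as those with a share nearest to 1, so the near-equal steps follow from that choice. Standard errors of 0.22 to 0.42 leave room for differences of that size, so the values do not show that the genotypes were equal. Calcoco1 stood at 4.59, 5.11 and 3.82 and 3.71, 4.44 and 5.495 FPKM at lactation and at 26.8, 30.97 and 20.96 and 26.1, 29.9, 25.7 and 24.8 FPKM at involution, with full overlap of the genotypes.

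Genes induced by interferons, whose receptors also use JAK1, had a median interaction of 0.21 (20 of 32 positive and 12 negative, against 48.9% negative over all genes, with 1 under an unadjusted p of 0.05 in each direction) and median steps of 1.40 and 1.44. The median was 0.0323 without lactation control M43768, 0.113 without lactation knockout M44174, 0.0680 without involution control M43914 and 0.0775 without involution knockout M43767. The negative member under that level was Rsad2, the antiviral protein viperin, at 3.71, 3.74 and 3.12 FPKM in involution controls and 1.41, 1.87, 1.65 and 1.84 FPKM in knockouts, with no overlap (interaction -0.97 ± 0.23, unadjusted p = 0.00101, adjusted p = 0.477). NF-kB targets and inflammatory mediators had a median of 0.01 (11 of 21 positive), immediate early and stress genes of -0.03 (11 of 23 positive) and phagocytic clearance genes of -0.04 (9 of 23 positive). TGF-beta pathway genes had 18 of 23 negative interactions, 1 with an unadjusted p under 0.05 (1.89% over all genes), and a median of -0.17. Matrix proteolysis genes had 14 of 21 positive interactions and a median of 0.17, which was -0.02 without involution control M43768. Regulators of lactation around STAT5 had 15 of 21 negative interactions and a median of -0.14, and among them Igf1, a growth factor of the stroma, had a positive one (1.74 ± 0.60, unadjusted p = 0.0131). Secreted remodelling proteins, which include Spp1 and S100a4, had 17 of 29 positive interactions and a median of 0.14.

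**Figure D4:**
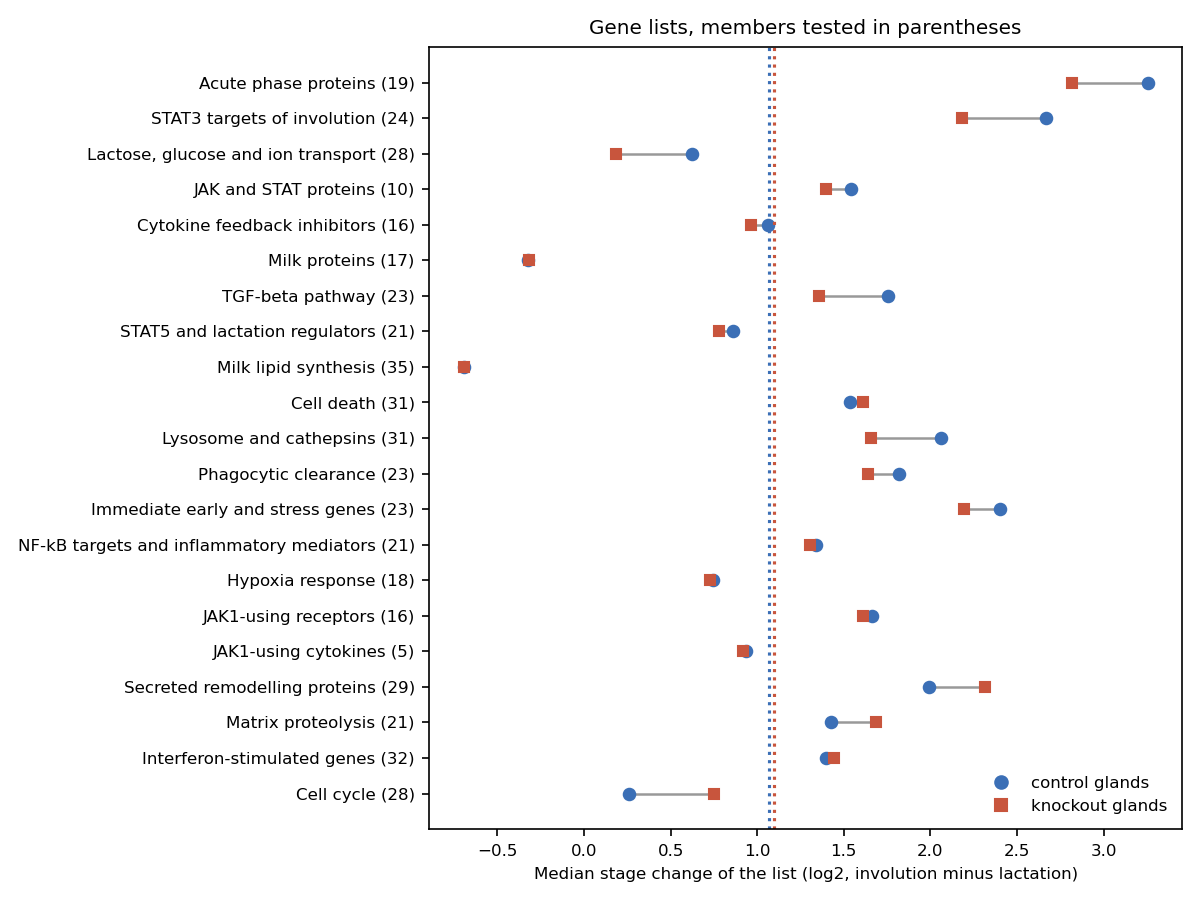
Median stage change (horizontal, log2, involution minus lactation) of the tested members of 21 pathway lists in control glands (blue circles) and knockout glands (red squares), ordered by the median interaction, with the number tested in parentheses. Dotted lines are the medians over all genes tested, 1.07 in controls and 1.10 in knockouts. The acute phase list has the largest steps, 3.26 and 2.82, and the cell cycle list, with the most positive median interaction, is at 0.26 and 0.75. Milk lipid synthesis has the lowest medians, -0.70 in both genotypes.

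Of 103 markers in the 13 cell type lists none passed (limma), and 4 (3.88%) had an unadjusted p under 0.05, near the 3.35% over all genes. Luminal markers had median steps of 2.63 in controls and 2.79 in knockouts (7 of 12 positive interactions) and macrophage markers of 2.21 and 2.02 (6 of 13 positive). Endothelial markers had median steps of 1.97 and 1.59 and 8 of 10 negative interactions with a median of -0.49, and their sums at lactation were 25.0 to 40.3 FPKM in controls and 50.0 to 63.8 FPKM in knockouts, with no overlap. Summed B and plasma cell markers were 682 to 929 FPKM in involution controls and 327 to 646 FPKM in knockouts, also with no overlap, and their part in the negative interactions was not tested. Skin keratinocyte markers, 3 of which were tested, were high in 1 library, involution knockout M43767 (379 FPKM against 4.84 to 22.6 FPKM in the other 12), with median steps of -0.15 in controls and 2.05 in knockouts. Among the remaining lists the median interaction was 0.35 for basal epithelium, 0.12 for fibroblasts, 0.42 for T and NK cells, 0.05 for skeletal muscle, -0.25 for adipocytes, -0.19 for neutrophils and -0.16 for lymph node stroma. Erythrocyte markers ranged from 31.3 to 2113 FPKM over the libraries, with median steps of 1.90 and 0.82 and a median interaction of -1.08 over 4 genes.

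The agouti gene a, which sets coat colour, was high in all knockouts and in 1 control. It stood at 652, 1.54 and 1.33 FPKM in lactation controls and 215, 321 and 186 FPKM in lactation knockouts, and at 0.521, 0.878 and 1.05 FPKM in involution controls and 301, 439, 194 and 212 FPKM in involution knockouts. Control M42186 lay above all knockouts, whereas the other 5 control libraries lay below 2 FPKM. The interaction was 3.31 ± 2.16 (adjusted p = 0.999), and without M42186 it was 0.58. Fitted within each stage, the knockout effect was 3.95 ± 2.15 at lactation. At involution, where M42186 has no part, it was 7.26 ± 0.30 (limma adjusted p = 2.46e-05).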

How the data were processed

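RNA sequencing of whole mammary gland covered 13 libraries in 4 groups of 3, 3, 3 and 4. CASAVA, cutadapt, TopHat and the mouse build mm9 are listed for the upstream steps, per the submitters' processing notes. The authors deposited 1 table of FPKM for each stage, joined here on gene symbol. The step from alignments to FPKM, its annotation and scaling, and the fragments per library were not given in the sources used here, so relative depth was read from the spacing of values under 0.3 FPKM and no counting intervals are given.

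Each table was divided by median-of-ratios factors computed within it and transformed to log2(FPKM + 1), with a pseudocount of 1, which understates changes of low genes. The interaction and the knockout effect at each stage were fitted with limma 3.58.1 (lmFit and eBayes with trend, R 4.3.3), without covariates, two-sided, with Benjamini-Hochberg adjustment over 12667 genes and a threshold of 0.05. FPKM are printed as deposited, contrasts after scaling. The control stage change and the interaction share the control libraries, so no relation between them was tested. The fit was tested on simulated data, with changes placed in genes at higher levels. It called 6 of 100 genes with an interaction of 1 (log2) and 71 of 100 with one of 2. Interactions near 1 were thus mostly missed. Another 8 calls fell on genes in which no change was placed. Expected values of the involution knockouts below 0 were set to 0, which can itself create an interaction. These 8 may therefore not all be false calls.

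The members, the 34 gene lists (21 of pathways, 13 of cell types) and the tests were chosen with earlier results of these data known. Genes were named if they passed the interaction threshold, were among the 4 smallest p of a pathway list, or had a control stage change of at least 2 with at least 10 FPKM and an extreme or near-equal share, and from a short set list. Exceptions are marked. Alternatives covered the pseudocount, filter, scaling, model and each library left out. Promoter sequences are from RefSeq on GRCm38.p6.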

Additional observations from a re-analysis of the deposited data

Results flagged for a closer look

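The knockout effect differed between the stages past the threshold (limma, adjusted p under 0.05 for the interaction) in 10 genes. Those measured in every group were Spp1 (-6.63), Tnnt2 (1.63) and Nfasc (-1.32). Those listed at 0 in a whole group had fitted interactions of -14.84 for Csn1s2a, -9.40 for Mir7036b, -7.22 for Mir1905, 12.53 for Trf, -10.67 for Rn45s, -3.67 for Cdk8 and -4.95 for Mir22. These 7 values move with the pseudocount and give no limit on a fold. Zeros of this kind may be failed estimates, which was not tested.

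Among the 4 involution knockouts, the only group large enough for this test, 1 library stood far from the other 3 in 4 of the 62 genes examined. Nfasc was 0.468 FPKM in M43196, Anpep, an aminopeptidase of cell surfaces, 9.43 FPKM in M44440, Pip 390.1 FPKM in M44176, and Fads2, a fatty acid desaturase, 11.5 FPKM in M44440. The gap to the nearest library exceeded Dixon's 95% critical value in each, which chance gives in about 1 in 20 groups.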

How the results depend on the processing

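Spp1 passed in all 25 alternatives. The number of genes past the interaction threshold (10) was 2 with at least 1 FPKM required in 10 libraries, 16 with array weights, 20 with the mouse number as a random block (consensus correlation 0.697), 1 without genes listed at 0 in a whole group or also without short RNA entries, and 6 to 12 with 1 library left out. Of genes measured in every group (3), 1 passed under the strict filter and under both settings without listed zeros, 6 with FPKM as deposited or quantile normalization, 5 with robust empirical Bayes, 9 with array weights, 11 with the block, and 1 to 5 with 1 library left out. The knockout effect at involution had 9 calls, 14 with robust empirical Bayes, 17 with array weights and 3 to 9 with 1 library left out. At lactation it had 1 call (371 genes under an unadjusted p of 0.05), 0 with array weights and 0 to 5 with 1 library left out, with 0 without control M44175 or knockout M42734.

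The percentage of genes with a knockout step under 0.5 of the control step (2.09%) was 8.27% with joint scaling, 2.65% with a pseudocount of 0.1, 2.83% for control changes of at least 2, 0.554% when genes were chosen by the mean of both changes (chosen after seeing the data, as was leaving out short RNA entries) and 1.65% to 4.39% with 1 library left out. Median interactions with 1 library left out ran from -0.0232 to 0.80 for the cell cycle list and -0.34 to 0.0522 for JAK and STAT genes. The interaction of Hp ran from -0.0207, without lactation knockout M42734, to 1.35 with 1 library left out, and the cause was not tested. Counted as pairs of a gene and an alternative over 62 genes, 26 others gained and 19 lost the threshold without a change of sign. The remaining 1449 pairs were unaltered in call and direction. All losses were in Nfasc, which passed in 12 of 21 alternatives, and Tnnt2, which passed in 14 of 24. The 2 stages were never compared across tables by a test. Groups of 3 and 4 and unknown fragment numbers limit what can be detected. No paired analysis was possible because the groups compared share fewer than 2 mouse numbers, so the block rests on M43768 and M43767 alone.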
